A study of Homo sapiens with 24 samples.

Results

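The sites described here carry high H3K9 acetylation in control cells and are listed as changed in this mark after HAT1 depletion. They were selected on 2 measured values: a shControl level of 9.8 or more and a difference between the shControl and shHAT1 levels under 1, both on the log2 scale. Of the 2191 listed H3K9ac sites, 484 met the rule, and every one of them was lower in shHAT1 cells, as were 2174 of all listed sites. The limit on the difference leaves out 34 sites that are as strongly marked, with levels up to 11.72, so the set does not hold every site of the highest levels. Chromatin immunoprecipitation and sequencing (ChIP-seq) was done in hTert-HME1, a telomerase-immortalised human mammary epithelial line. H3K9ac was measured in 3 libraries of shControl cells (titled shCon2, shCon3 and shCon5) and 3 libraries of cells with a short hairpin RNA against HAT1 (titled shHAT1 A7, B6 and C5), each with the same H3K9ac antibody. Rbap46 was measured in 2 libraries of untreated cells and compared with 2 input libraries of untreated cells, which had no immunoprecipitation. The labels do not say whether the titles stand for separate clones or hairpins, and the tables do not measure how far HAT1 was depleted.

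Acetylation of lysine 9 of histone H3 is a mark of active promoters and enhancers, where acetyltransferases add it and deacetylases remove it. HAT1 is best known for acetylating newly made histone H4 before it is built into chromatin. Rbap46, also called RBBP7, is a histone-binding chaperone that forms a complex with HAT1 and also belongs to several other chromatin complexes, deacetylase complexes among them.

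Each level is the authors' mean over the libraries of a group, as the log2 of normalized reads in a site, so no value per library, no SD and no replicate check can be given. Read depth per library is unknown. Differences between sets of sites are described without a test, because sites of the same libraries are not replicates; the 95% intervals beside shares are exact binomial (Clopper-Pearson) intervals that cover counting over sites only. Positions are on hg19, the build in the submitters' processing notes. In the Rbap46 table, input was uneven along chromosome 22: its median log2 level was 7.48 at 183 Rbap46 sites between 19 and 24 Mb and 5.50 at the other 571. The median Rbap46 level was also higher at these 183 sites, 8.21 against 6.61. The shControl H3K9ac level had a median of 9.28 at the 4 H3K9ac sites there and 9.42 at the others of that chromosome. These 4 sites are too few to tell whether the H3K9ac level followed input. On chromosome 9, input reached a median of 6.63 at 22 sites between 134 and 135 Mb, against 5.73 at the other 1197. The labels give 1 cell line for all libraries but do not say whether the Rbap46 and input libraries came from the same stock of cells as the H3K9ac libraries, and this was not tested. Each Rbap46 value therefore sets libraries side by side that may differ in their cells. The main Rbap46 results are also given without these 2 chromosomes, which does not settle that point.

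The first question was how much acetylation these strongly marked sites lost when HAT1 was depleted. On the linear scale the median high-level site went from 1128 normalized reads in shControl to 695 in shHAT1 cells. The median loss per site was 436 normalized reads, with quartiles of 369 and 519 and a range from 253 to 1827. At the 1656 sites under the level limit that were lower in shHAT1, the median loss was 221 normalized reads, with quartiles of 171 and 276. In log2 terms the order was the opposite. The median log2 difference was 0.69 at the high-level sites, with quartiles of 0.59 and 0.79, and 0.80 at the lower-level sites, with quartiles of 0.67 and 0.97. Expressed as a share of the control level, the median loss was 38.0% at high-level sites and 42.6% at lower-level sites. The rule bears on this order, because it bars losses of 50% or more from the high-level set and not from the lower-level sites. The 34 equally marked sites that it leaves out lost a median of 53.8%. Over all 518 lower sites with a level of 9.8 or more, whatever their difference, the medians were 0.70 on the log2 scale, 38.4% of the control level and 448 normalized reads. All of these values belong to the contrast that chose the sites, so they describe the set and support nothing further.

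**Figure D1:**
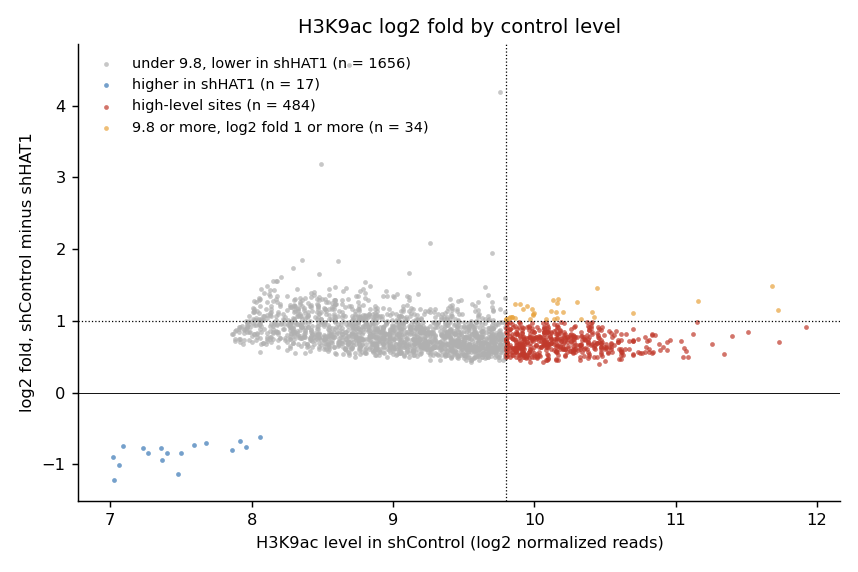
Each point is one of the 2191 listed H3K9ac sites, with its shControl level (log2 normalized reads, x axis) and its log2 difference between shControl and shHAT1 (y axis); dotted lines mark the limits of 9.8 and 1. The 484 high-level sites (red) lie between 0.40 and 0.99, the 34 sites in orange lie at 1.02 or above, and the lower edge of the cloud falls with the level up to about 10.6.

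The smallest log2 difference that passed the authors' limit on the false discovery rate (FDR), under 0.1, depended on the level. The smallest positive log2 difference listed was 0.55 among sites with a shControl level under 8.5, 0.50 between 8.5 and 9, 0.45 between 9 and 9.4, and 0.43 between 9.4 and 9.8. Among sites from 9.8 to 10.2 it was 0.42, from 10.2 to 10.6 it was 0.40, and over the 60 sites at 10.6 or more it was 0.47. Log2 differences of 0.40 to 0.54 were thus listed at well-marked sites and not at sites under 8.5. Medians moved in the same direction as these smallest values, from 0.94 under 8.5 to 0.71 between 9.4 and 9.8, and then little, with 0.72, 0.70 and 0.66 in the 3 sets above 9.8. The high-level sites thus continued the trend of the sites just below them, with no step at the limit. Over an inferred 12048 tested sites, 18.0% were listed as lower in shHAT1 at FDR under 0.1; all 484 high-level sites are among them, since the set was taken from that list. At the stricter FDR under 0.05 in the authors' deposited table, 210 of the 484 remained (43.4%), beside a background of 36.1% over all listed sites. High-level sites without a called change were not analysed here.

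The loss on the linear scale was spread over many sites. The 484 sites make up 22.3% of the 2174 sites lower in shHAT1 and held 38.5% of their summed shControl level. They accounted for 35.6% of the summed linear loss. Summed over the set, 38.0% of the control level was lost, against 43.1% over the other 1690 lower sites. Of the 484 largest linear losses in the table, 368 were at high-level sites. Of the 484 largest log2 differences, 14 were, but the rule closed 402 of those places to the set, since that many listed sites had a difference of 1 or more.

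**Figure D2:**
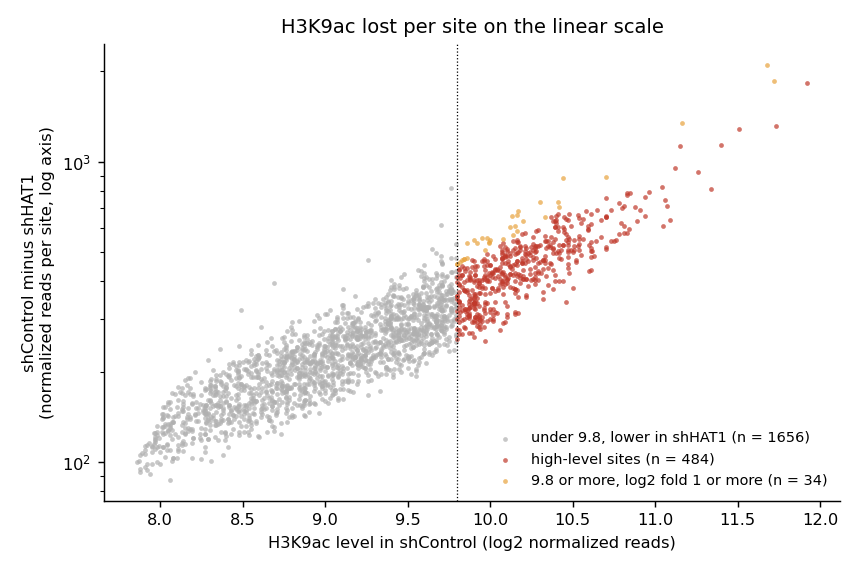
Linear loss per site (shControl minus shHAT1 in normalized reads, log axis) against the shControl level (log2 normalized reads) for the sites lower in shHAT1. The loss rises with the level across the whole range, from a median of 144 under a level of 8.5 to 660 at 10.6 or more.

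The site of highest control level in the set was chr6:74230350-74230850, a region of 501 bp. It had 3875 normalized reads in shControl and 2048 in shHAT1 cells, the largest linear loss of the set at 1827. Its log2 difference was 0.92, and its FDR was 0.0398 in the authors' deposited table. In relative terms this site lost 47.1%, close to the most that the rule allows. The second site, chr22:46464986-46466299, is 1314 bp wide and went from 3397 to 2077 normalized reads, a loss of 38.9%. Its FDR in the authors' deposited table was 0.0942, near the limit of the table. At chr1:8938354-8939309, the level went from 2916 to 1629 normalized reads. At chr9:86594123-86595114, it went from 2702 to 1563. These 4 sites, together with chr2:203129944-203130903, are the 5 of largest linear loss in the set. The last of them fell from 2272 to 1144 normalized reads, a loss of 49.7%.

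The other 5 of the 10 highest sites of the set lost between 29.3% and 43.0% of their control level. At chr3:128902361-128903292 the level went from 2592 to 1783 normalized reads, a loss of 31.2%. Site chr1:17231312-17231812 lost 37.6%, from 2452 to 1531. Site chr16:2802519-2803495 lost 43.0%, from 2226 to 1269. Site chr1:11072479-11072979 lost 29.3%, from 2180 to 1541, and the authors' deposited table gives it an FDR of 0.0908. Site chr2:85765797-85766695 lost 33.1%, from 2150 to 1438. Losses thus ranged from 29.3% to 49.7% among these 10 sites and from 24.2% to 49.7% over the whole set. Among the 34 sites left out by the limit of 1, 3 had a higher level than the last of these 10.

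**Figure D3:**
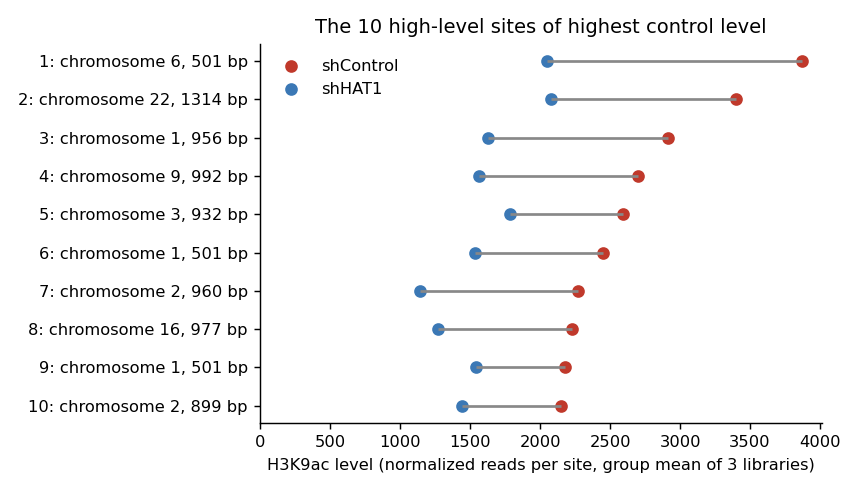
H3K9ac level in shControl (red) and shHAT1 cells (blue) at the 10 sites of highest control level among the 484, in normalized reads per site as group means of 3 libraries; lines join the values of a site. Every site is lower in shHAT1, and the site on chromosome 6 has the longest line, from 3875 to 2048.

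Within the set, whose levels start at 9.8 and whose log2 differences end under 1 by the rule, the relative loss showed little order by level. Spearman's rho between the shControl level and the log2 difference was -0.02 over 484 sites, whereas it was 0.79 between the level and the linear loss. Over all 2174 lower sites the same values were -0.39 and 0.92. These describe sites that share the same 6 libraries, the level enters both measures, and the rule shortens the range of both in the set. Between 0.60 and 0.79 on the log2 scale lay the bulk of the set, with 127 sites from 0.60 to 0.69 and 117 from 0.70 to 0.79. Only 27 sites were under 0.50 and 44 were at 0.90 or more. Each fold class had a median level between 10.08 and 10.16.

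At the weak end of the set, chr10:99094385-99094885 went from 1409 to 1067 normalized reads, a log2 difference of 0.40, and the authors' deposited table gives it an FDR of 0.0993. Next came chr2:54342555-54343055 with 0.42 and chr2:128145149-128145649 with 0.43. Then followed chr3:40498326-40499209 with 0.44 and chr20:34252428-34252928 with 0.45. These 5 sites lost between 24.2% and 26.8% of their control level. At the strong end stood chr2:242640915-242641415, chr2:203129944-203130903 and chr1:153537220-153537720, each with a log2 difference of 0.99. They were followed by chr15:66648620-66649589 and chr1:173836513-173837013 with 0.98. The site chr2:242640915-242641415 went from 1082 to 545 normalized reads. A further 34 sites had a level of 9.8 or more and a difference of 1 or more; the nearest of these had 1.02, at chr1:8937245-8937745 and chr16:3071948-3072944, and 1.03, at chr2:122288086-122288586.

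Within the set, the FDR was lowest not at the strongest sites but at levels near 10. It was 0.00475 in the authors' deposited table at chr7:10979695-10980195, which went from 976 to 572 normalized reads. At chr17:41392893-41393393 the FDR in the authors' deposited table was 0.00536, with 910 and 491 normalized reads. Sites chr16:71842623-71843123, chr2:68384555-68385055 and chr16:3332867-3333852 followed, with FDR values of 0.00813, 0.00906 and 0.0138 in the authors' deposited table. The first 4 of these 5 were the only sites of the set with an FDR under 0.01 in the authors' deposited table, which is 0.83% of the set beside 2.01% over all listed sites. At this limit the share was below the background, and at FDR under 0.05 it was above it. The rule bears on the share under 0.01. Of the 34 sites that it leaves out, 11 had such an FDR in the authors' deposited table (32.4%), the lowest being 3.85e-05.

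The sites nearest to the level limit were named on both sides of it. Just inside it, at 9.8, chr2:132250537-132251037, chr16:25268813-25269313 and chr3:196295023-196295919 had log2 differences of 0.85, 0.64 and 0.74. Just outside it, at 9.79, chr6:136611055-136611555, chr1:78148497-78148997 and chr16:15736526-15737509 had 0.69, 0.66 and 0.91.

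The width of the sites was compared next, since a wider site collects more reads. Most sites in the table are 501 bp wide, the smallest width. Among the high-level sites 322 of 484 were at 501 bp (66.5%, interval 62.1% to 70.7%). The other 162 were wider, and their widths ran from 813 to 1628 bp with a median of 956 bp. Among the other 1707 sites, 310 were wider, and 81.8% were at 501 bp. The share at 501 bp fell steadily with the level, from 89.1% under a level of 8.5 to 56.7% at 10.6 or more. Width is not independent of the rule. When each level was scaled to 501 bp, 14 of the 162 wider sites still reached 9.8 and 148 did not. The median level per 501 bp was 9.24 for the wider high-level sites and 10.10 for the 322 sites of 501 bp. Losses were alike in both width classes, with a median log2 difference of 0.70 in the wider and 0.68 in the 501-bp sites.

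The second question was whether Rbap46 was present at the strongly acetylated sites. Rbap46 was not part of the rule. Of the 484 high-level sites, 429 overlapped an Rbap46 site above input by at least 1 bp, which is 88.6% (interval 85.5% to 91.3%). Of the other 1707 H3K9ac sites, 1239 did, or 72.6% (interval 70.4% to 74.7%), and the background over all listed H3K9ac sites was 76.1%. The difference was 16.1 percentage points, with an interval of 12.2 to 19.5 combined from both binomial intervals. Rbap46 sites above input, listed at an FDR of 0.05 or less in the authors' deposited table, numbered 30425, or 37.6% of an inferred 80828 tested sites. None of the high-level sites overlapped an Rbap46 site below input. Few such sites were listed, since 30425 of the 30475 listed Rbap46 sites were above input. Without chromosomes 9 and 22 the shares were 89.4% and 72.9%. On chromosome 22 itself, 8 of 14 high-level sites overlapped an Rbap46 site above input, and on chromosome 9, 24 of 26 did.

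The overlap rose with the H3K9ac level well before the limit of 9.8 and, over all widths together, changed little above it. It was 54.3% under a level of 8.5, 69.3% between 8.5 and 9, 77.6% between 9 and 9.4, and 85.4% between 9.4 and 9.8. Above the limit it was 87.8% from 9.8 to 10.2, 88.4% from 10.2 to 10.6 and 85.0% over the 60 sites at 10.6 or more. The mix of widths changed over these sets, with 71.3% of sites at 501 bp in the first and 56.7% in the last. For 501-bp sites alone the overlap was 86.1%, 83.0% and 79.4%, the last with an interval of 62.1% to 91.3%. For wider sites it was 92.0%, 98.2% and 92.3%. The interval of the set just below the limit, 81.9% to 88.5%, covers the value of the set just above it. Sites just below the limit thus overlapped an Rbap46 site nearly as often as those above it. Of the 34 sites with a level of 9.8 or more and a log2 difference of 1 or more, 25 overlapped (73.5%, interval 55.6% to 87.1%).

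Wider sites have more room for an overlap, so the comparison was repeated within width classes. Among sites of 501 bp, 275 of 322 high-level sites overlapped (85.4%) and 997 of 1397 others (71.4%). Among wider sites the counts were 154 of 162 (95.1%) and 242 of 310 (78.1%). The difference was present in both classes. Input was also higher at the Rbap46 sites that overlapped the high-level set, with a median of 6.63 against 6.45 at the other H3K9ac sites. The part of this higher input in the overlap was not tested.

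**Figure D4:**
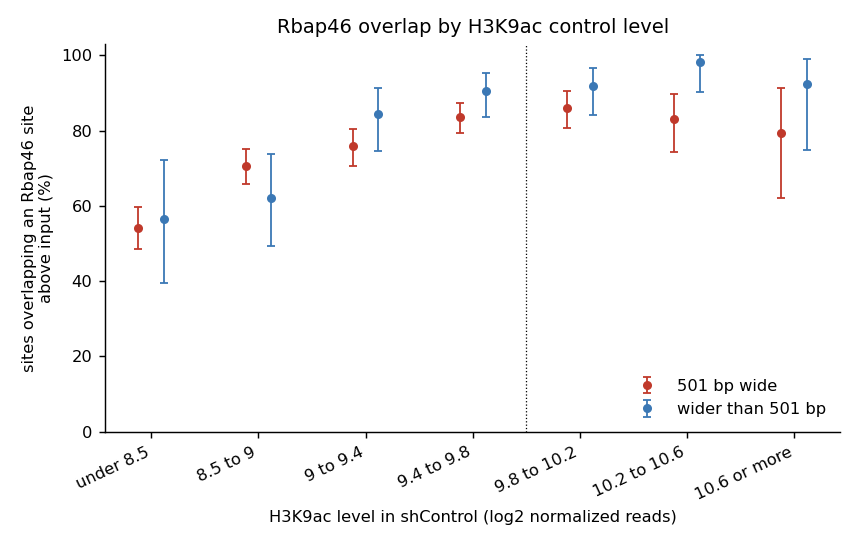
Share of H3K9ac sites that overlap an Rbap46 site above input by at least 1 bp (y axis), in 7 sets of shControl level (x axis), for sites of 501 bp (red) and wider sites (blue); bars are 95% exact binomial intervals over sites. For 501-bp sites the share rises from 54.1% to 83.7% left of the dotted line at 9.8, and right of it is 86.1%, 83.0% and 79.4%; for wider sites it is 92.0%, 98.2% and 92.3% there.

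Where an Rbap46 site was present, its enrichment over input was close to that at the other H3K9ac sites. At the 429 overlapped high-level sites the median Rbap46 level was 7.85 and the median input level 6.63. Their difference had a median of 1.20 on the log2 scale, with quartiles of 0.97 and 1.47. At the 1239 other overlapped H3K9ac sites the medians were 7.65 and 6.45, and the difference had a median of 1.17, with quartiles of 0.96 and 1.44. The high-level sites exceeded the others by 0.03, with an interval of -0.01 to 0.08. That interval is combined from those of both medians, covers the spread over sites only and is not a test. Rbap46 and input were thus both higher at the high-level sites, by about as much. Over all 30425 Rbap46 sites above input the median difference was 1.05, with a median Rbap46 level of 6.85. A log2 difference of 2 or more was found at 14 of the 429 sites (3.26%) and at 48 of the 1239 others (3.87%). Without chromosomes 9 and 22 the medians were 1.18 and 1.16.

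**Figure D5:**
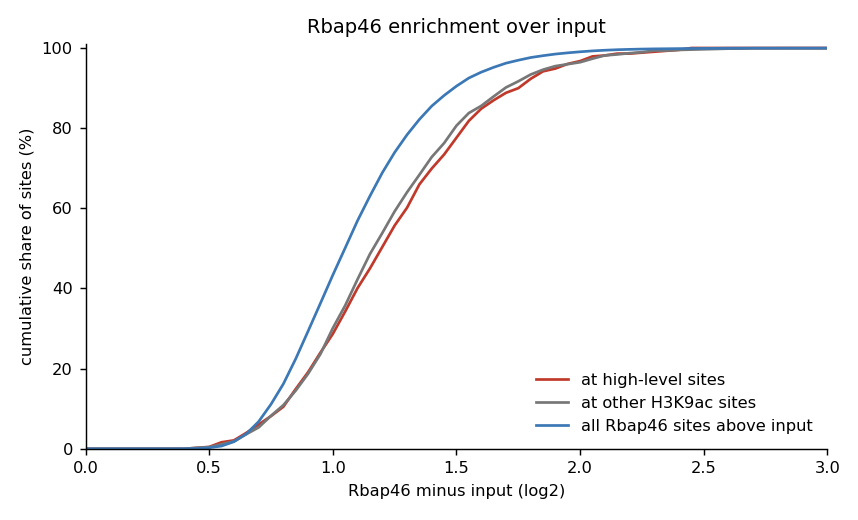
Cumulative share of sites (y axis, %) by the difference of Rbap46 and input levels (x axis, log2) at the 429 overlapped high-level sites (red), the 1239 other overlapped H3K9ac sites (grey) and all 30425 Rbap46 sites above input (blue). The red and grey curves run close together, with medians of 1.20 and 1.17, and both lie right of the blue curve, whose median is 1.05.

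Among the high-level sites, whose H3K9ac levels and log2 differences the rule limits, neither showed much order by Rbap46 enrichment. The 429 sites were put in 4 sets by the difference of Rbap46 and input. From the weakest set (0.44 to 0.97) to the strongest (1.48 to 2.42), the median H3K9ac log2 difference was 0.68, 0.66, 0.70 and 0.69. The median shControl level was 10.14, 10.14, 10.12 and 10.15. Spearman's rho across the 429 sites was 0.04 between the H3K9ac log2 difference and Rbap46 enrichment, and 0.01 between the H3K9ac level and Rbap46 enrichment. Over the 1658 overlapped sites lower in shHAT1, without the limits of the rule, the same values were -0.07 and 0.07. Correlations this weak across sites show no relation, and they do not show that none exists. The rule also shortens the range of both H3K9ac measures in the set. With the Rbap46 level in place of enrichment, rho over the 1658 sites was -0.13 for the log2 difference and 0.22 for the H3K9ac level.

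The sites at both ends of Rbap46 enrichment were as follows. The strongest Rbap46 enrichment in the set, a log2 difference of 2.42, was found at chr2:73441343-73441843 and chr17:49243671-49244171, where the H3K9ac log2 differences were 0.73 and 0.82. Rbap46 enrichment was 2.40 at chr10:70715949-70716449, with Rbap46 and input levels of 9.11 and 6.71, and the H3K9ac difference there was 0.77. It was 2.32 at chr19:45909508-45910008 and 2.26 at chr9:135545331-135545831, with H3K9ac differences of 0.57 and 0.70. At the weak end it was 0.44 at chr6:44355291-44355791, where the levels were 8.05 and 7.61 and the H3K9ac difference was 0.73. It was 0.50 at chr1:156182656-156183156, 0.52 at chr7:23571230-23571730 and chr1:207223939-207224439, and 0.54 at chr16:4674284-4675200. The H3K9ac differences of these 4 sites were 0.56, 0.60, 0.57 and 0.67. The 5 sites of strongest enrichment thus had H3K9ac differences from 0.57 to 0.82 and the 5 of weakest enrichment from 0.56 to 0.73, ranges that overlap. Under the median of the set, 0.69, lay 1 of the 5 strongest and 4 of the 5 weakest. The site of highest H3K9ac level, on chromosome 6, had a Rbap46 enrichment of 1.01, below the median of the set.

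The 2 kinds of site did not always lie on top of each other. The centres of a high-level site and its Rbap46 site were a median of 143 bp apart, with quartiles of 52.5 and 248 bp. At the other H3K9ac sites the median was 162 bp. At chr6:74230350-74230850 the Rbap46 site is chr6:74230683-74231183, shifted toward the end of the H3K9ac site. At chr1:17231312-17231812 it is chr1:17231311-17231811, nearly the same interval. An overlap with 2 or more Rbap46 sites was rare in the set, at 11 of 484 sites (2.27%, interval 1.14% to 4.03%). It was as rare at the other H3K9ac sites, at 31 of 1707 (1.82%), and over all listed sites, at 42 of 2191. This count thus did not set the high-level sites apart.

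The 55 high-level sites without an overlap were mostly near an Rbap46 site all the same. For 33 of them the nearest Rbap46 site above input was within 1 kb, and the median gap was 243 bp, against 3085 bp for the 468 other H3K9ac sites without an overlap. The other 22 high-level sites lay more than 1 kb away, and 4 of these were beyond 100 kb. Of the 468 others without an overlap, 185 were within 1 kb (39.5%) and 88 beyond 100 kb (18.8%). Counting overlaps too, 95.5% of the set and 86.1% of all listed H3K9ac sites had an Rbap46 site within 1 kb. The 55 sites had a median shControl level of 10.11 and a median log2 difference of 0.71, close to the 10.14 and 0.68 of the 429 overlapped sites. Both the second and the fourth site by level belong to them. From chr22:46464986-46466299 the nearest Rbap46 site was 15197 bp away, and from chr9:86594123-86595114 it was 52 bp away.

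High-level sites lay on all 23 chromosomes of the table. On chromosomes with at least 20 listed sites, they made up between 6.67% (2 of 30 on chromosome 4) and 31.1% (14 of 45 on chromosome 22). The exact intervals of these 2 shares were 0.818% to 22.1% and 18.2% to 46.6%. Over the table, 484 of 2191 listed sites were in the set, which is 22.3% of the 2174 sites lower in shHAT1. The 2 chromosomes were picked as the ends of the range, and differences between chromosomes were not tested. Chromosome 2 held the most, with 52 of 177 sites (29.4%), followed by chromosome 1 with 50 of 213 (23.5%). On the X chromosome 3 of 40 sites were in the set (7.50%). Of the 371 windows of 1 Mb with a high-level site, 290 held a single one. The most in a window was 6, among 21 listed sites between 2 and 3 Mb on chromosome 16.

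Some high-level sites were flanked by a second changed site. Within 2 kb, 87 of the 484 (18.0%) had another listed H3K9ac site, against 375 of the 1707 others (21.97%). In 69 of these 87 cases the next site was outside the set. Those neighbours had a median level of 9.08 and a median log2 difference of 0.93, whereas the high-level sites beside them had 10.20 and 0.71. The neighbour had the larger log2 difference in 57 of the 69 pairs. The rule holds the log2 difference of the high-level sites under 1 and leaves that of their neighbours free. Neighbours are also seen only where they passed the authors' FDR limit, and the differences listed depend on the level. Over all listed lower sites, the smallest and the median difference were 0.45 and 0.79 between 9 and 9.4. From 9.8 to 10.2 they were 0.42 and 0.72. The part of the rule and of the FDR limit in the order of these pairs was not tested. Among the 10 strongest sites of the set, 3 had such a neighbour. Beside chr1:8938354-8939309, with a difference of 0.84, lay chr1:8937245-8937745 at a gap of 608 bp, with a level of 9.97 and a difference of 1.02. Beside the strongest site on chromosome 6 lay chr6:74231160-74231660 at a gap of 309 bp, with a level of 9.78 and a smaller difference of 0.59. Beside chr9:86594123-86595114 lay chr9:86595599-86596099, itself in the set, at a gap of 484 bp and with a difference of 0.91.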

How the data were processed

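The members and the lists of sites to be named were chosen with earlier results of these data known. Both tables have the layout of a DiffBind report, per the file headers. The submitters' processing notes name hg19, cutadapt, Bowtie2, Picard, SAMtools, MACS2 and DiffBind, and for Rbap46 and input also DESeq2; the role of each tool and the scaling between libraries are not given in the sources used here. The authors deposited log2 group means of normalized reads and a log2 fold. Their p-value and FDR were used as deposited by the authors. The log2 base was checked: the deposited overall level lay within 0.00912 (H3K9ac) and 0.00971 (Rbap46) of log2 of the averaged linear group levels. The numbers of tested sites were inferred from p-value, rank and FDR.

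Differences were computed from the group levels and matched the deposited fold within 0.01. Linear levels are 2 raised to the log2 level. Of several overlapping Rbap46 sites, that with the most shared bp was used. The overlap search was tested on simulated data. The sites named were the 10 of highest level, 5 at each end by H3K9ac difference and by Rbap46 enrichment, 5 by FDR, 5 by linear loss, and 3 at each side of the limits. Named neighbours were chosen after their values were seen. No gene annotation or genome of hg19 was used here, so sites are named by position and no sequence is shown. With group means only, the fit planned for values per library was not made. A further 14 libraries, of HAT1 and of histone H4 acetylation, were not analysed here. The work used Python 3.11 with scipy 1.17.1, pandas 2.3.3, matplotlib 3.10.9 and numpy 2.4.6.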

Additional observations from a re-analysis of the deposited data

How the results depend on the processing

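For 8 results, 82 values were computed under 12 alternatives fixed together with the sample groups. Of these, 66 kept a count within 1.5 times or a value within its interval, 16 moved and 0 reversed. Only the differences between sets could reverse, because the counts, shares and medians of the set are positive under each of these settings. Some values could hardly move either. The median width was 501 bp throughout, and taking only sites lower in shHAT1 left the same 484 sites in the set. With a level limit of 9.5 the set held 807 sites, the median linear loss was 366 and the difference in Rbap46 overlap 19.5 points. With a limit of 10 the median linear loss was 489. At FDR under 0.05 the set held 210 sites, with an overlap of 91.9%, a median log2 difference of 0.77, a median linear loss of 480 and a difference in overlap of 21.99 points. With sites of 501 bp only, 322 sites remained, with an overlap of 85.4%, against 71.4% at the other sites of 501 bp. With the level scaled to 501 bp the overlap was 85.4% and the difference 10.97 points. Requiring an overlap of 50% of the H3K9ac site gave 66.7%, against 50.3% at the other H3K9ac sites and 53.9% over all listed sites. That is a difference of 16.4 points. Allowing a gap of 1 kb gave 95.5% and a difference of 12.03 points. Stricter and looser limits change the number of sites by construction; the cause of the other moves was not tested. The difference in Rbap46 enrichment ranged from 0.01 to 0.06. With a level limit of 9.5 it was 0.055, with an interval over sites of 0.0089 to 0.0953. Leaving out chromosomes 9 and 22, chosen after the data were seen, moved none of the 8 results. The planned fits without each library in turn were not made. No paired analysis was possible because only means of each group are deposited. Depth per library is unknown, so the limit it sets on weak sites cannot be stated in reads.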
